A study of Mus musculus with 6 samples.

Results

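Growth hormone reaches hepatocytes in pulses and binds the growth hormone receptor, which activates the kinase JAK2 and, through it, the transcription factors STAT5A and STAT5B. STAT5 drives the hepatic genes for IGF1 and for the acid-labile subunit that carries IGF1 in blood, switches on the feedback inhibitors SOCS2 and CISH, and sustains genes that the livers of male mice express far more than those of females, among them *Hsd3b5* and several major urinary protein (*Mup*) genes. The 10 genes described here, *Ghr*, *Stat5a*, *Stat5b*, *Igf1*, *Igfals*, *Socs2*, *Cish*, *Hsd3b5*, *Mup3* and *Mup20*, form a receptor-to-target chain of this kind. They were chosen by name, with earlier results of these livers known, from 17975 genes in the table, so their differences between groups are given as a description with no test.

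RNA was sequenced from whole liver, 1 liver per mouse, of 3 Hom and 3 WT mice. Hom mice carried floxed *NEK7* alleles (NEK7 fl/fl) and an Alb-Cre transgene, in which the albumin promoter directs Cre recombinase to hepatocytes. The state of the gene in other liver cells was not measured here. WT mice were the wild-type controls. Whether they carried floxed alleles or Cre alone, and the age and sex of each sequenced mouse, are not given in the sources used here. The paper states that both sexes were used in its experiments on knockout mice and that source data hold the sex of each animal. Those source data were not at hand. Values are read counts, and CPM, the counts scaled to a common library size with TMM factors. A log2 fold change is always Hom minus WT, with its standard error (SE).

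The DNA in front of the feedback gene *Cish* and of *Igfals* is shown because, among the genes with a promoter sequence at hand, these were the ones holding the palindromic letters that STAT5 dimers bind, TTCNNNGAA. RefSeq promoter windows on GRCm38.p6, from 250 bases before to 50 bases after a transcription start, were found for 8 of the 10 genes; none was at hand for *Socs2* and *Mup20*. Capitals mark each match. The pattern TTCNNNGAA reads the same on both strands, while the middle letters of a single match need not.
Cish, chr9:107296409-107296708, plus strand: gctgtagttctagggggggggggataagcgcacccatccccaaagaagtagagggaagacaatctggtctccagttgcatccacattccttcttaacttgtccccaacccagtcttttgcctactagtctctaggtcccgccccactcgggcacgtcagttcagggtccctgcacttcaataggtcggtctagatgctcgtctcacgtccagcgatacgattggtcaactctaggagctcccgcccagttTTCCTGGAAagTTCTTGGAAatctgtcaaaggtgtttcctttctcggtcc
Igfals, chr17:24877981-24878280, plus strand: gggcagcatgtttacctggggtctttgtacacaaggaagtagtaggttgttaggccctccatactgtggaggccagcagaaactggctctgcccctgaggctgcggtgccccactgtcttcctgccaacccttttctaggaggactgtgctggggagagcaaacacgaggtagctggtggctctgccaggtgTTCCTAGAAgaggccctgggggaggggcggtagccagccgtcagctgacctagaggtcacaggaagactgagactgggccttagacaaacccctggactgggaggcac

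The *Cish* window holds 2 matches, at bases 1 to 9 and 12 to 20 of the transcript. In the *Igfals* window the match lies 58 to 50 bases before the start, and another annotated *Igfals* start has 1 match 236 to 228 bases before it. Of all 32851 promoter windows of this length, 8.30% hold at least 1 match and 0.457% hold at least 2. The windows of *Ghr*, *Stat5a*, *Stat5b*, *Igf1*, *Hsd3b5* and *Mup3* hold none of these letters, which says nothing of sites outside 300 bases. A match is a description of the sequence and was not tied to any value below.

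The 6 libraries were of nearly equal depth, with 19349418 to 19730236 counts each. *Nek7* stood at 65.2 ± 3.36 CPM (SD, n = 3) in WT and at 16.4 ± 1.83 CPM (SD, n = 3) in Hom livers (log2 fold change −1.99, SE 0.10, adjusted p = 1.59e-04, edgeR's quasi-likelihood test). Of 13805 tested genes, 20.1% were lower and 21.5% higher in Hom livers. Among hepatocyte markers 7 of 12 were lower and 0 higher at an adjusted p under 0.05 (edgeR; 1 was higher at an unadjusted p under 0.05 and 1 with DESeq2), with summed levels of 153020 to 187218 CPM in WT and 89606 to 124816 CPM in Hom livers. Among cholangiocyte markers 0 of 9 were lower and 8 higher, with sums of 70.7 to 104 CPM in WT and 629 to 884 CPM in Hom livers. In every liver *Alb* was the largest part of the hepatocyte sum and *Spp1* of the cholangiocyte sum. *Spp1* alone was at 29.3 to 57.4 CPM in WT and 520 to 733 CPM in Hom livers. Stellate markers (2 of 10 lower, 5 higher) summed to 509 to 612 and 719 to 788 CPM, macrophage markers (2 of 10 lower, 2 higher, near the shares of all genes) to 239 to 597 and 326 to 446 CPM, endothelial markers (5 of 10 lower, 1 higher) to 255 to 343 and 204 to 215 CPM, and lymphocyte markers (0 of 8 tested lower, 3 higher) to 11.5 to 25.0 and 26.4 to 46.6 CPM. No hepatocyte marker was at 0 in any liver. For the cholangiocyte and lymphocyte markers, 0 were also lower at an unadjusted p under 0.05 and with DESeq2. The part of these markers in the differences below was not tested.

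In each group 1 liver stood apart. Of genes on the Y chromosome, *Ddx3y* and *Kdm5d* gave 0 counts in Hom replicate 1 against at least 630 and 243 in the other 5 livers, and *Eif2s3y* had 4 counts against at least 582, while *Uty* had 149 against at least 464. Hom replicate 1 was also alone in a high level of *Cyp17a1*, with 7541 counts against 71 to 348 elsewhere, and of *Sult2a1*, with 2069 counts against 0 to 8. Both genes are on the list of female-biased liver genes used below and were picked after their values were seen. The groups were thus not alike in Y-linked counts, and the part of sex in the differences below was not tested. WT replicate 1 had Y-linked counts like those of WT replicates 2 and 3, but it was the lowest WT liver for 23 of 24 tested male-biased liver genes and the highest for 17 of 21 tested female-biased ones. Values without either liver are given beside the results that lean on it most.

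All 10 genes passed the filter on low counts. For 6 of them the highest Hom liver was below the lowest WT liver, an arrangement that held for 27% of tested genes, and for 0 the lowest Hom liver was above the highest WT liver, as it was for 28.7% of tested genes. The choice of genes used this contrast, and no more is read from these counts. Their median log2 fold change was −0.82, against −0.0018 for all tested genes, and it was also −0.82 with *Hsd3b5* placed at its bound. Leaving out the TMM factors and scaling by library size moved the median of all genes to 0.45 and the balance of calls from 2780 lower and 2974 higher genes to 642 lower and 6574 higher.

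**Figure D1:**
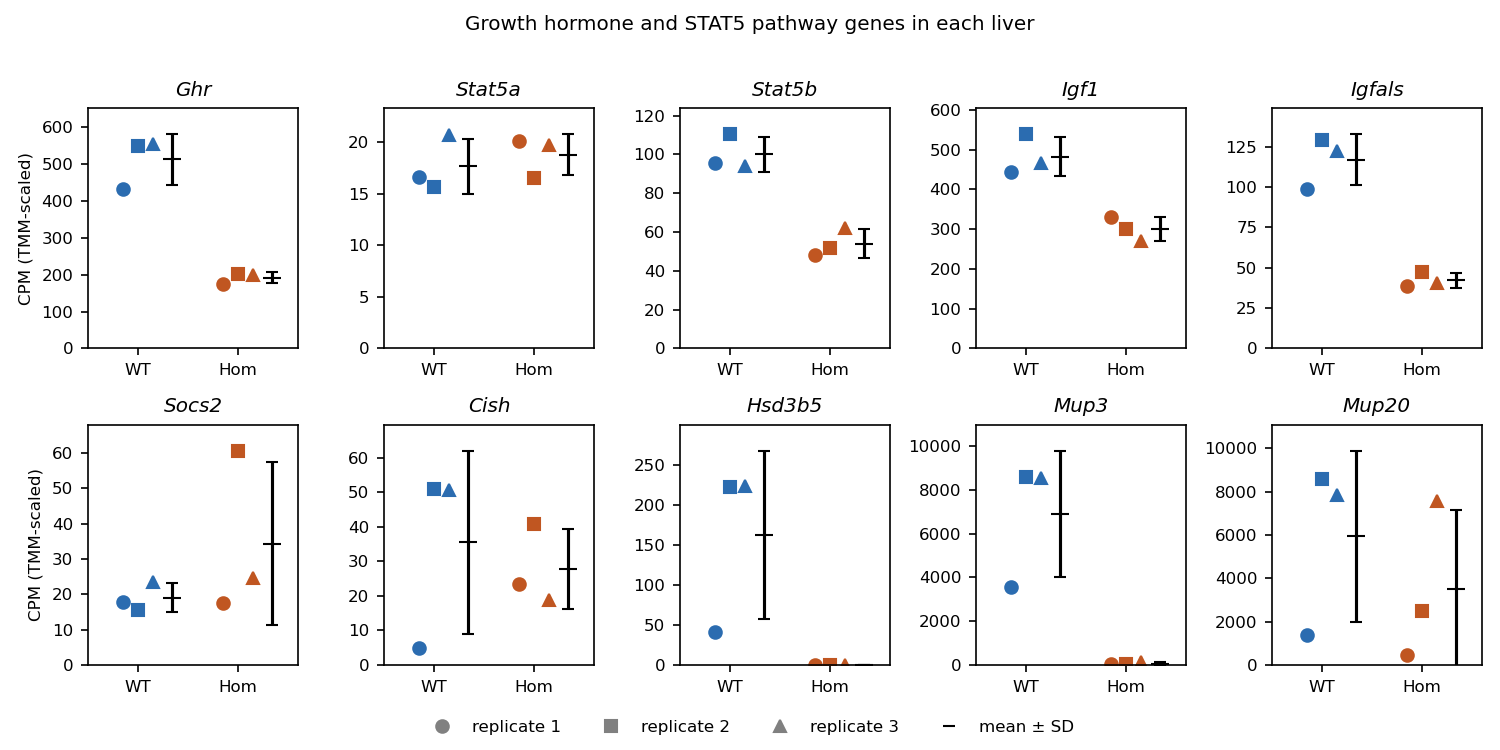
Expression of the 10 genes in each liver, in TMM-scaled CPM on axes that start at 0 and differ between panels. Points are single livers (circle, square and triangle for replicates 1, 2 and 3), and bars are the mean ± SD of 3 livers, with the lower bar of Mup20 in Hom reaching below the axis. The 3 Hom livers lie under the 3 WT livers for Ghr, Stat5b, Igf1, Igfals, Hsd3b5 and Mup3 and overlap them for the other 4 genes.

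The receptor was lower in Hom livers. *Ghr*, which encodes the transmembrane growth hormone receptor, was at 433, 548 and 555 CPM in WT replicates 1, 2 and 3 and at 174, 201 and 199 CPM in Hom replicates 1, 2 and 3. No Hom liver reached the lowest WT liver, and the livers of a group were close to each other. The mean was 512 ± 68.4 CPM (SD, n = 3) in WT and 191 ± 15.1 CPM (SD, n = 3) in Hom livers, which is 37.4% of WT and a log2 fold change of −1.42 (SE 0.14, 95% interval −1.74 to −1.10). It was −1.53 without WT replicate 1, −1.36 without Hom replicate 1 and −1.45 without both, and −0.95 with library size alone. In whole liver, fewer hepatocytes and less *Ghr* RNA per hepatocyte cannot be told apart.

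The STAT5 genes differed from each other. *Stat5b*, the more abundant of the pair in liver, was at 95.6, 110.45 and 94.2 CPM in WT and at 48.1, 51.7 and 62.3 CPM in Hom livers. The groups did not overlap on this scale, and the Hom mean was 54.0% of the WT mean, with a log2 fold change of −0.89 (SE 0.12, 95% interval −1.17 to −0.60). In TPM, which sum to the same total in every library without TMM factors, *Stat5b* was at 25.9 to 32.0 in WT and 20.1 to 28.5 in Hom livers, so that the groups overlapped. *Stat5a*, its paralog on the same chromosome, was at 16.6, 15.7 and 20.7 CPM in WT and at 20.1, 16.5 and 19.7 CPM in Hom livers. These overlapped, and the log2 fold change was 0.088 (SE 0.14, 95% interval −0.24 to 0.42). In TPM the groups of *Stat5a* did not overlap, with 5.57 to 7.55 in WT and 10.3 to 11.8 in Hom livers.

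Per length, *Stat5b* was at 29.3 ± 3.14 TPM (SD, n = 3) and *Stat5a* at 6.80 ± 1.07 TPM (SD, n = 3) in WT livers, and at 24.4 ± 4.20 and 11.0 ± 0.73 TPM (SD, n = 3 each) in Hom livers. In both groups every liver had more *Stat5b* than *Stat5a*. Of all 50-base words in the annotated transcripts, 14.7% of those of *Stat5a* and 11.1% of those of *Stat5b* also occur in the other gene, and the estimated counts of neither gene were whole numbers in any liver. Reads from the shared stretches were thus divided between the 2 genes by the authors' counting. Library size alone moved *Stat5b* to −0.43 and *Stat5a* to 0.54, a shift of both genes together.

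RNA of *Igfals* and *Igf1*, whose proteins circulate in 1 complex, was lower in CPM, by different amounts. *Igfals*, which encodes the acid-labile subunit of the complex, was at 99.1, 129 and 123 CPM in WT and at 38.5, 47.2 and 40.6 CPM in Hom livers. The Hom livers lay well under the WT livers, at 36.0% of the WT mean (log2 fold change −1.47, SE 0.13, 95% interval −1.78 to −1.17). It was −1.58 without WT replicate 1, −1.41 without Hom replicate 1 and −1.51 without both. In TPM the groups did not overlap either, at 77.1 to 82.8 in WT and 37.3 to 52.7 in Hom livers.

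*Igf1*, the hormone gene itself, was at 444, 539 and 465 CPM in WT and at 329.8, 299 and 269 CPM in Hom livers. The groups did not overlap, and the Hom mean was 62.0% of the WT mean (log2 fold change −0.69, SE 0.13, 95% interval −0.99 to −0.39). On the TPM scale they did overlap, at 104, 103 and 90.2 in WT and 96.0, 100.39 and 87.2 in Hom livers. With library size alone the log2 fold change was −0.23, with an interval from −0.50 to 0.035. The interval of *Igf1* thus reached above 0 under this scaling, whereas those of *Ghr*, *Stat5b*, *Igfals* and *Mup3* stayed under 0. This scaling moved the log2 fold changes of all 5 genes upward, as it did the median of all genes.

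**Figure D2:**
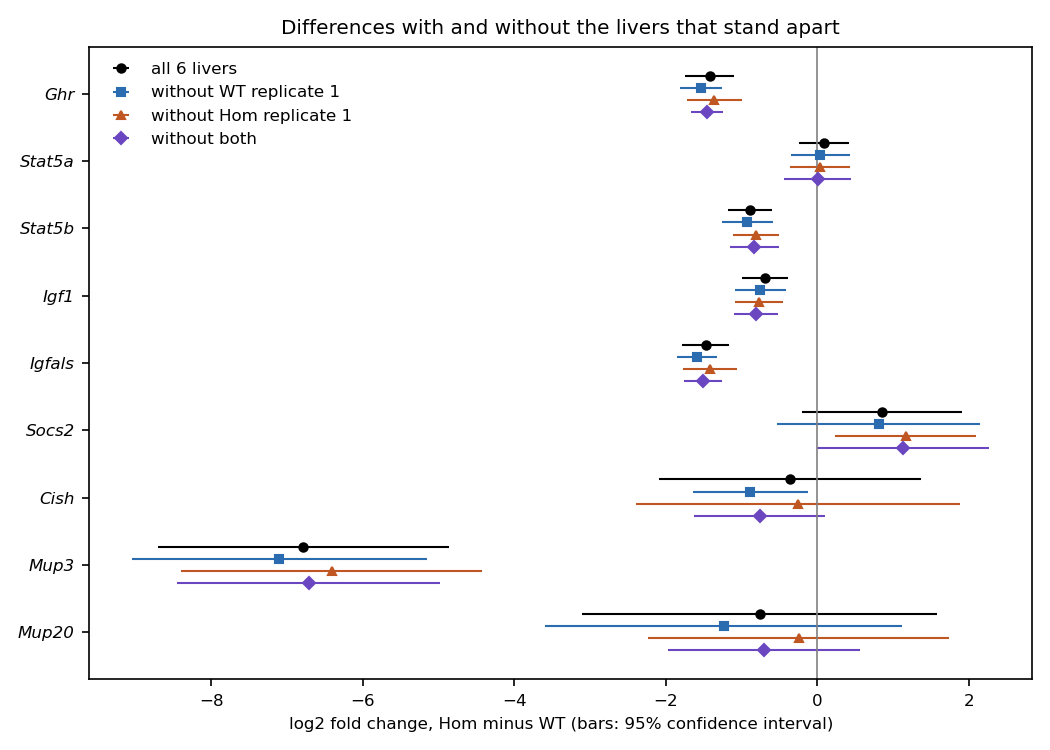
Log2 fold change, Hom minus WT, of 9 of the genes with all 6 livers, without WT replicate 1, without Hom replicate 1 and without both; bars are 95% intervals from edgeR, and Hsd3b5 is left out because its Hom counts were 0. Ghr, Stat5b, Igf1, Igfals and Mup3 keep intervals under 0 in all 4 fits, while Mup20 and Stat5a span 0 in all 4.

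The feedback inhibitors were uneven from liver to liver. *Socs2*, whose product restrains growth hormone receptor signalling, was at 17.9, 15.5 and 23.5 CPM in WT and at 17.6, 60.6 and 24.6 CPM in Hom livers. On this scale only Hom replicate 2 lay clearly above the WT range, and the groups overlapped. In TPM they did not, at 9.37 to 14.4 in WT and 14.8 to 63.7 in Hom livers. With library size alone the log2 fold change was 1.34 (95% interval 0.23 to 2.45). With TMM factors the log2 fold change of 0.85 (SE 0.45, 95% interval −0.20 to 1.91) became 0.15 without Hom replicate 2. It was 1.17 without Hom replicate 1, with an interval of 0.24 to 2.09.

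*Cish*, the inhibitor gene with the pair of STAT5 letters at its start, was at 4.97, 50.9 and 50.8 CPM in WT and at 23.4, 40.8 and 18.8 CPM in Hom livers. WT replicate 1 had the lowest value of all 6 livers and the other WT livers the highest, a spread of 10.2-fold within the group. The log2 fold change was −0.36 (SE 0.73, 95% interval −2.08 to 1.37). Without WT replicate 1 it was −0.88 (interval −1.65 to −0.12), without both it was −0.76 (interval −1.63 to 0.11), and with library size alone it turned to 0.16.

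Of the male-biased targets, *Hsd3b5* and *Mup3* showed the largest differences of the set, and *Mup20* did not. *Hsd3b5*, a steroid dehydrogenase of the 3-beta-hydroxysteroid family that male mouse liver expresses, had 730, 3476 and 3638 counts in WT livers and 0 counts in each Hom liver. In CPM, WT replicate 1 was at 40.8 and WT replicates 2 and 3 at 223 and 224. With 3 counts per library as the limit that a count of 0 allows, or at most 0.140 CPM, the Hom livers were at least 1161-fold lower than the WT mean and at least 291-fold lower than WT replicate 1. This limit covers counting error only. The transcripts of *Hsd3b5* share 0.533% of their 50-base words with the other *Hsd3b* genes.

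The related enzyme genes *Hsd3b2*, *Hsd3b3* and *Hsd3b7* kept counts in every Hom liver. They were named after their values were seen, and were lower in Hom livers with log2 fold changes of −1.63 (SE 0.14), −1.64 (SE 0.26) and −1.40 (SE 0.14) and adjusted p = 4.81e-04, 0.00353 and 7.95e-04, in that order (edgeR). *Hsd3b3* was at 244, 332 and 328 CPM in WT and at 62.2, 107 and 122 CPM in Hom livers. *Hsd3b1* and *Hsd3b6* had at most 2 counts in any liver.

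*Mup3*, which encodes a urinary pheromone carrier, was at 3573, 8604 and 8552 CPM in WT and at 25.8, 36.6 and 126 CPM in Hom livers. The groups stood far apart, with the Hom mean at 0.908% of the WT mean and a log2 fold change of −6.78 (SE 0.81, 95% interval −8.70 to −4.87). Over the fits without 1 liver it ranged from −7.79 without Hom replicate 3 to −6.41 without Hom replicate 1, and with library size alone it was −6.28. *Mup20*, which encodes the male pheromone darcin, was at 1391, 8572 and 7849.8 CPM in WT and at 468, 2484 and 7563 CPM in Hom livers. Its values spread 6.16-fold within WT and 16.2-fold within Hom livers, and Hom replicate 3 reached the level of WT replicates 2 and 3. The log2 fold change of −0.76 had an interval from −3.10 to 1.58. It was −2.005 without Hom replicate 3 and −1.23 without WT replicate 1, but −0.24 without Hom replicate 1, −0.40 without WT replicate 2, −0.51 without WT replicate 3 and −0.70 without both WT replicate 1 and Hom replicate 1.

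The whole *Mup* family was then read liver by liver, because most of its 22 genes are near copies. Of the 20 beside *Mup3* and *Mup20*, 16 passed edgeR's threshold as lower, against 20.1% of all tested genes, and 0 as higher, against 21.5%; the latter was also 0 at an unadjusted p under 0.05 and with DESeq2. Family counts made up 1.75%, 8.67% and 10.0% of the WT libraries and 0.137%, 0.475% and 1.64% of the Hom libraries. WT replicate 1 was thus close to Hom replicate 3 in its family total, although its *Mup3* was far higher. WT replicate 1 was the lowest WT liver for 22 of 22 genes, with WT replicates 2 and 3 exceeding it 1.68-fold to 433-fold (median 6.28-fold), and Hom replicate 3 was the highest Hom liver for 22 of 22.

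*Mup20* took a different share of the family in each group. It held 7.36%, 7.97% and 6.54% of *Mup* counts in WT livers and 37.2%, 64.5% and 55.0% in Hom livers. The lowest Hom share was several times the highest WT share, so the other *Mup* genes were lower by more than *Mup20*. The summed family had a log2 fold change of −3.71 (SE 1.04, 95% interval −6.17 to −1.25), which was −4.18 without WT replicate 1, −3.23 without Hom replicate 1, −3.69 without both and −5.01 without Hom replicate 3. *Mup3* shares 12.6% of its 50-base words with other *Mup* genes and *Mup20* 4.66%, whereas *Mup2*, *Mup15* and *Mup22* share 98.4%, 100% and 100%, and values of such copies depend on how reads were divided among them.

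**Figure D3:**
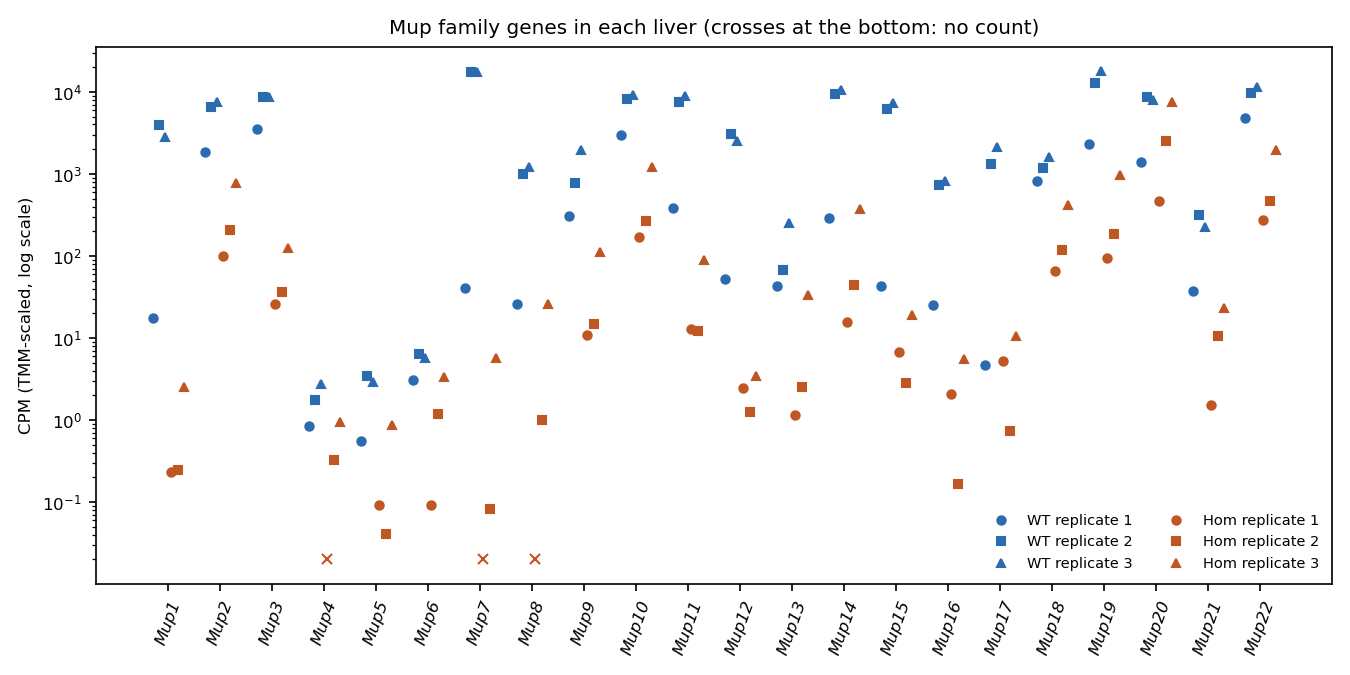
TMM-scaled CPM of the 22 Mup genes in each liver, on a log scale; blue marks WT, orange marks Hom, and crosses at the bottom mark livers with no count. WT replicate 1 (blue circles) is the lowest WT liver for every gene, and Mup20 is the gene whose highest Hom liver, at 7563 CPM, comes closest to the WT replicates 2 and 3.

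Ordered per length, the chain ran from the secreted *Mup* proteins down to *Stat5a*. In WT livers *Mup3* was at 11171 ± 3831 TPM (SD, n = 3) and *Mup20* at 9712 ± 6086 TPM, 2 neighbours whose livers overlapped. *Ghr* followed at 298 ± 7.64 TPM, above every WT value of *Hsd3b5*, which was at 143 ± 86.9 TPM (SD, n = 3) and overlapped *Igf1* at 99.1 ± 7.71 TPM. *Igfals* at 79.7 ± 2.91 TPM lay under every WT value of *Igf1* and above all of *Stat5b*. *Cish* at 16.1 ± 11.6 TPM and *Socs2* at 12.3 ± 2.61 TPM (SD, n = 3) overlapped. By mean *Stat5a* came last, although *Cish* in WT replicate 1, at 2.71 TPM, lay under every WT value of *Stat5a*. In Hom livers *Mup20*, at 9511 ± 9900 TPM (SD, n = 3), stood above *Ghr* at 156 ± 28.7 TPM and *Mup3* at 163 ± 145 TPM, and *Hsd3b5* was at 0.

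The other genes of growth hormone signalling and its control did not move as 1 group. Of 30 tested, 7 were lower and 5 higher at an adjusted p under 0.05 (edgeR) around a median of −0.11 on the log2 scale, shares that lay near the 20.1% and 21.5% of all tested genes. *Jak2*, the receptor's kinase, was at 16.1, 16.9 and 14.6 CPM in WT and at 18.1, 21.8 and 21.1 CPM in Hom livers, with a log2 fold change of 0.36 (SE 0.11, adjusted p = 0.0388). That call was lost without WT replicate 1 (adjusted p = 0.0648), WT replicate 2 (0.0683), WT replicate 3 (0.109), Hom replicate 2 (0.136) or Hom replicate 3 (0.129), and also with DESeq2 (0.0580), with no filter (0.0566) and with the loess correction for gene length, where the log2 fold change was 0.17 (adjusted p = 0.215). *Socs3*, a feedback inhibitor of cytokine receptors, rose from 9.88, 12.6 and 8.42 CPM to 31.2, 20.3 and 31.1 CPM, with no overlap (log2 fold change 1.42, SE 0.22, adjusted p = 0.00303). *Socs1* stood at 0.838, 0.770 and 0.737 CPM in WT and 0.933, 1.94 and 1.16 CPM in Hom livers (log2 fold change 0.78, adjusted p = 0.119).

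Among the transcription factors that set the sex pattern of growth hormone targets, *Cux2*, a repressor found in female liver, rose from 1.28, 0.449 and 0.430 CPM to 8.73, 3.96 and 2.24 CPM (log2 fold change 2.75, SE 0.64, adjusted p = 0.0145). Hom replicate 1 was the highest and WT replicate 1 the highest of the WT livers, and the adjusted p was 0.0585 without WT replicate 2. *Bcl6*, a repressor found in male liver, was at 132, 30.4 and 19.4 CPM in WT and at 15.9, 16.0 and 34.7 CPM in Hom livers. Its log2 fold change of −1.45 (adjusted p = 0.149) rested on WT replicate 1 and was 0.040 without WT replicate 1 and Hom replicate 1. *Onecut1*, a hepatic factor that growth hormone regulates, ran from 2.35 CPM in WT replicate 1 to 31.5 CPM in WT replicate 3 and from 5.82 to 16.2 CPM in Hom livers (log2 fold change −0.60, adjusted p = 0.563).

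*Hnf4a*, a master regulator of the hepatocyte that acts together with STAT5B, fell from 784, 967 and 828 CPM in WT to 578, 505 and 517 CPM in Hom livers (log2 fold change −0.69, SE 0.13, adjusted p = 0.00745). With library size alone it was −0.23 (adjusted p = 0.131). Further genes of the list past the threshold included *Tox* (−1.34, adjusted p = 0.00319), *Cebpb* (−0.92, 0.00385) and *Irs1* (−0.79, 0.0112) among the lower and *Trim24* (1.01, 0.00212) among the higher, all picked after their values were seen. Under library size alone the list had 1 lower and 14 higher of 30 genes, while 642 of all tested genes were lower and 6574 higher.

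**Figure D4:**
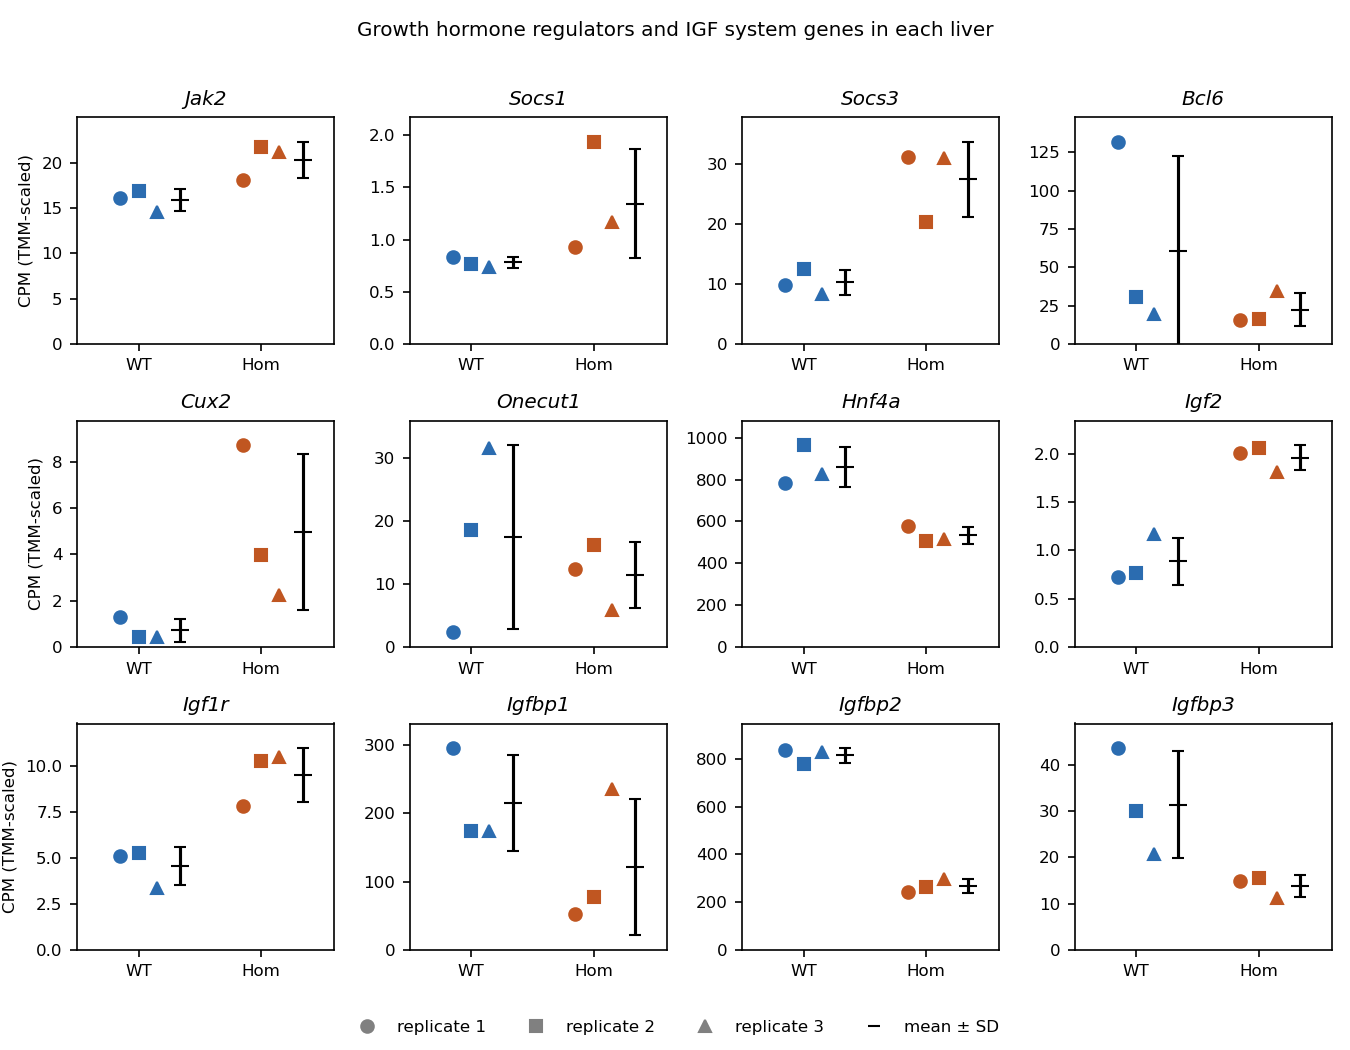
TMM-scaled CPM of 7 growth hormone signalling and regulator genes and 5 IGF system genes in each liver, on axes that start at 0; points are single livers and bars the mean ± SD of 3 livers, with the lower bar of Bcl6 in WT reaching below the axis. WT replicate 1 alone carries the high Bcl6 value of 132 CPM and the lowest Onecut1 value, and Igfbp2 is lower in every Hom liver than in any WT liver.

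Around IGF1, single binding proteins and receptors differed in either direction. Of 15 listed genes of the IGF system, 12 were tested (*Pappa*, *Pappa2* and *Stc1* had too few counts), of which 2 (16.7%) passed the threshold as lower and 4 (33.3%) as higher around a median of −0.042 on the log2 scale, against 20.1% and 21.5% of all tested genes. *Igfbp2*, a binding protein made by hepatocytes, fell from 838, 780.5 and 829 CPM in WT to 241, 262 and 298 CPM in Hom livers (log2 fold change −1.61, SE 0.12, adjusted p = 3.83e-04). *Igfbp3*, which forms the ternary complex with IGF1 and the acid-labile subunit, fell from 43.7, 30.0 and 20.7 CPM to 14.9, 15.6 and 11.2 CPM (log2 fold change −1.18, SE 0.27, adjusted p = 0.0141). The call for *Igfbp3* was lost with library size alone (adjusted p = 0.0732) and without Hom replicate 3 (0.0537).

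Of the IGF receptors and ligands, *Igf1r*, which encodes the receptor of IGF1, rose from 5.08, 5.26 and 3.38 CPM in WT to 7.84, 10.3 and 10.5 CPM in Hom livers (log2 fold change 1.06, SE 0.22, adjusted p = 0.00880). *Igf2*, a growth factor of fetal liver, was at 0.726 to 1.17 CPM in WT and 1.81 to 2.06 CPM in Hom livers (log2 fold change 1.14, adjusted p = 0.0179). With counts of 12 to 50 per liver, that call was lost without WT replicate 2 (adjusted p = 0.0667), Hom replicate 2 (0.0745) or Hom replicate 3 (0.0597). *Igfbp1*, a binding protein under insulin and fasting control, was at 174 to 296 CPM in WT and at 51.9, 76.9 and 236 CPM in Hom livers (log2 fold change −0.82, adjusted p = 0.265), and without Hom replicate 3 at −1.74 (adjusted p = 0.0146). Without Hom replicate 1, 4 of 12 IGF system genes were lower, against 18.1% of all tested genes. Without Hom replicate 2, 2 of 12 were higher, where 2023 of all tested genes were higher.

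The male-biased liver genes, 25 genes that do not include the 10 above and of which 24 were tested, had 21 members lower and 0 higher by edgeR's test, against 20.1% and 21.5% of all tested genes, and their median on the log2 scale was −3.66 against −0.0018 for all tested genes. Neither an unadjusted p under 0.05 nor DESeq2 gave more than 0 higher. The 3 not past the threshold, named for that reason, were *Cyp4a12b*, *C6* and *Selenbp2*. For 20 of the 24, no Hom liver reached the lowest WT liver, against 27% of all tested genes. Leaving out the 5 *Mup* genes of the list, 16 of 19 were lower, with a median of −2.77. The list was written with earlier results of these livers known and is not independent evidence of a direction.

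The 5 largest differences in that list were in 3 *Mup* genes, a transporter and an elongase. *Slco1a1*, a hepatic organic anion transporter, fell from 183, 403 and 374 CPM in WT to 1.17, 1.15 and 2.46 CPM in Hom livers (log2 fold change −7.64, SE 0.47, adjusted p = 2.21e-04). *Elovl3*, a fatty acid elongase, fell from 229.6, 735 and 805 CPM to 0.513, 1.73 and 7.80 CPM (log2 fold change −7.45, SE 1.05, adjusted p = 0.00229). In both genes WT replicate 1 was the lowest WT liver and still far above every Hom liver.

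*Mup7* was at 40.3, 17611 and 17314 CPM in WT and at 0, 0.0825 and 5.78 CPM in Hom livers, so that WT replicate 1 lay nearer to the Hom livers than to its own group in absolute terms (log2 fold change −12.53, adjusted p = 0.0143). It was −13.12 without WT replicate 1 and −11.96 without Hom replicate 1. *Mup1* was at 17.6, 3910.0 and 2785 CPM in WT and at 0.233, 0.247 and 2.54 CPM in Hom livers (log2 fold change −11.10, adjusted p = 0.00817), with −11.69 without WT replicate 1 and −10.65 without Hom replicate 1. *Mup12* had a log2 fold change of −9.61 (adjusted p = 0.00428).

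The lower count of the male-biased list held in size without the livers that stood apart. It was 22 of 25 without WT replicate 1, where 19.4% of all tested genes were lower and 21.5% higher. It was 20 of 25 without Hom replicate 1, against 18.1% lower and 19.2% higher. Without both it was 24 of 25, against 20.5% lower and 23.9% higher. Library size alone left 21 of 24 lower.

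**Figure D5:**
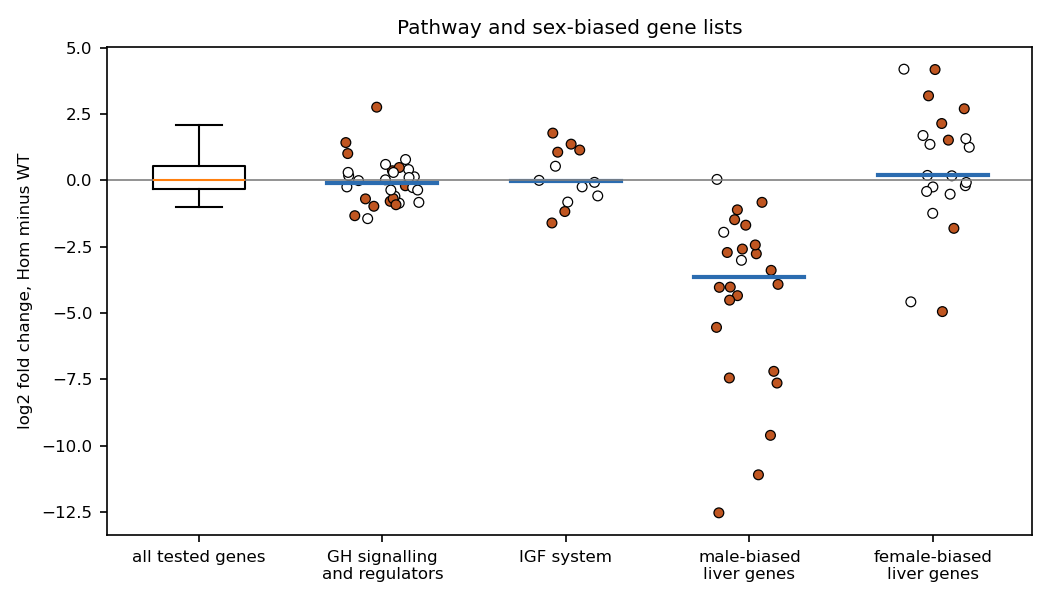
Log2 fold change, Hom minus WT, of all tested genes (box from the lower to the upper quartile with the median, whiskers at the 5th and 95th percentiles) and of the tested genes of 4 lists; filled points are past an adjusted p of 0.05, open points are not, and blue lines are list medians. The male-biased genes have a median of −3.66, while the female-biased genes scatter around 0.18 with all 6 livers.

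The count of female-biased liver genes depended on the livers included. Of 31 listed genes 21 had enough counts to be tested, of which 2 (9.52%) passed edgeR's threshold as lower and 5 (23.8%) as higher around a median of 0.18 on the log2 scale, against 20.1% and 21.5% of all tested genes. The median was 1.56 without WT replicate 1, −0.17 without Hom replicate 1 and 1.09 without both. *Ntrk2*, a neurotrophin receptor gene, rose from 2.62, 2.89 and 3.93 CPM to 85.6, 37.9 and 46.8 CPM (log2 fold change 4.17, SE 0.36, adjusted p = 5.06e-04). *Fmo2*, a flavin monooxygenase, rose from 18.1, 13.5 and 9.03 CPM to 119, 76.9 and 68.0 CPM (log2 fold change 2.69, SE 0.31, adjusted p = 0.00116). *Atp6v0d2*, a subunit of the vacuolar proton pump, rose from 4.36 to 5.58 CPM in WT to 19.2 to 25.1 CPM in Hom livers (log2 fold change 2.14, adjusted p = 3.16e-04). Hom replicate 1 was the highest Hom liver in all 3 genes.

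*Cyp4a14*, a fatty acid hydroxylase, fell from 1081, 187 and 521 CPM to 13.6, 11.6 and 32.7 CPM (log2 fold change −4.95, SE 0.76, adjusted p = 0.00310), against the direction of *Ntrk2* and *Fmo2*, and was at −4.20 without WT replicate 1 and −4.75 without Hom replicate 1.

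Hom replicate 1 was the highest Hom liver for 18 of the 21 tested female-biased genes and the lowest for 18 of the 24 tested male-biased ones. The number of female-biased genes higher in Hom livers was 9 of 22 without WT replicate 1, where 21.5% of all tested genes were higher. It was 3 of 21 without Hom replicate 1 (19.2% of all) and 10 of 20 without both WT replicate 1 and Hom replicate 1 (23.9%). Without WT replicate 2 or WT replicate 3 it was 3 of 22, where 2070 and 2438 of all tested genes were higher, in that order. *Cyp2b9*, a female-biased cytochrome P450 picked after its values were seen, was at 105 CPM in WT replicate 1 and at 0.124 to 4.20 CPM in the other 5 livers.

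Finally, genes with the most similar pattern over the 6 livers were sought for *Igf1* and *Hsd3b5* among 8270 genes with a mean of at least 10 CPM. For *Igf1* the highest Pearson correlations of log2 CPM were with *Ppp1r3b*, a glycogen-targeting phosphatase subunit, and *Pskh1*, a kinase (0.998 and 0.997), and with *Upb1*, a pyrimidine-degrading enzyme (0.996). For *Hsd3b5* they were with the mitochondrial enzyme genes *Etfdh* (0.998), *Agmat* (0.998) and *Hibadh* (0.998). The points share their libraries and the 2 groups, and for *Hsd3b5* the pattern is largely that of 3 livers at 0.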

How the data were processed

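RNA from 6 livers was extracted with Trizol and sequenced on the DNBSEQ platform. The authors deposited 1 table with an estimated count per gene, not scaled between livers, and with FPKM and TPM for each liver. Per the labels, the submitters' processing notes name HISAT2 2.0.4, Bowtie2 2.2.5, RSEM 1.2.12 and the build mm9. FPKM served only to recover gene lengths. TPM served for levels between genes and to set beside CPM in *Stat5a*, *Stat5b*, *Igf1*, *Igfals* and *Socs2*. The deposited mean columns carry crossed group names and the columns of fold changes and p-values are the authors' own comparison; neither was used. Whole numbers made up 65.9% of the counts, and all were rounded.

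Of 17975 genes, 13805 passed filterByExpr in edgeR 4.0.16 (R 4.3.3). Libraries were scaled by TMM factors (0.81 to 0.92 in WT, 1.09 to 1.23 in Hom), and 3 Hom livers were set against 3 WT livers with the quasi-likelihood test. P-values were adjusted by Benjamini-Hochberg over all tested genes, with a threshold of 0.05. The fit was tested on simulated data. The 10 genes and the hand-written lists (growth hormone signalling, IGF system, male-biased and female-biased liver genes, liver cell markers) were chosen with earlier results of these data known. Genes named beside the 10 were *Nek7*, 7 regulators, 5 IGF genes, Y-linked genes (*Xist* was not analysed here), the 5 largest non-overlapping calls with a mean of at least 1 CPM in each sex-biased list, and the 3 genes most correlated with *Igf1* and with *Hsd3b5*. Genes named outside this rule are marked as picked after their values were seen. The result for 1 gene that this rule names is not reported here. Every pair of libraries within a group differed beyond counting error (lowest chi-square over its degrees of freedom 23.8), so none was a copy of another. That cannot show that they are separate mice. Each counted as 1 mouse because the paper gives 3 mice per group.

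The same replicate numbers in both groups belong to different mice, and same-numbered livers did not deviate together (correlations of −0.109, −0.0563 and −0.0494), so no pairing was used. Alternatives were DESeq2 1.42.0, library size alone, upper-quartile scaling, no filter, a minimum of 10 counts in all 6 livers, a replicate block, a loess correction for gene length, the summed *Mup* family, each liver left out in turn and, chosen after seeing the data, WT replicate 1 and Hom replicate 1 both left out, with the *Mup* sum refitted in each of these. Promoters are from RefSeq on GRCm38.p6 and shared words from GENCODE M21 transcripts, not from the submitters' build.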

Additional observations from a re-analysis of the deposited data

How the results depend on the processing

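With library size alone, 642 genes were lower and 6574 higher, the growth hormone signalling list had 1 lower and 14 higher, the IGF system had 1 lower, and the 10 genes had a median of −0.33; this scaling moves the median of all genes. Upper-quartile factors left 4 lower genes in the signalling list and 2060 among all tested genes. With the replicate block, 3 signalling genes, 9 female-biased genes and 2383 of all tested genes were higher. Since the replicate numbers pair no animals, no call lost there is read as a weaker effect. Without WT replicate 1 and Hom replicate 1, an alternative chosen after seeing the data, 2871 genes, 24 male-biased, 10 signalling and 4 IGF system genes were lower, and 3339 genes, 7 signalling and 10 female-biased genes were higher. *Bcl6* turned to 0.040 there and was as low as −1.92 without Hom replicate 3. *Onecut1* turned to 0.14 without WT replicate 3 and was −1.17 without WT replicate 1 and Hom replicate 1.

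Over the 6 fits that left out 1 liver each, 1767 to 2750 genes were lower and 1986 to 3057 higher. The signalling list had 4 to 8 lower and 2 to 6 higher, the IGF system 2 to 4 lower and 2 to 5 higher, the male-biased list 18 to 22 lower and the female-biased list 3 to 9 higher. The fewest lower genes came without Hom replicate 3 and Hom replicate 2 (1767 and 1829). The median of the 10 genes was −1.23 to −0.71 and *Nek7* −2.06 to −1.91. The cause of these moves was not tested. *Hsd3b5* has no value when all livers must have 10 counts, since its Hom counts were 0. Few counts limit *Igf2*, *Socs1* and *Cux2*.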
